A study of Mus musculus with 10 samples.

Results

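DNA replication and nucleotide synthesis genes were examined as 35 listed members out of 19938 gene symbols on the arrays. The members are subunits of the MCM helicase, the factors that load and start it, the polymerases, clamp and ligase of the fork, the enzymes that make deoxynucleotides, the chromatin factors of S phase and the regulators of the G1/S transition. Each member was represented by the probe set that carries its symbol alone and, where there were 2, by the one of higher mean over the 10 arrays. All 35 had such a probe set and all 35 passed the filter on dim genes, which 14953 symbols passed in all. RNA came from B220+ cells sorted from pre-B colonies, which are clones of B cell precursors of the mouse grown in a semisolid medium, here M3630, and collected on day 7. Colonies of genotype Hspa9+/+ (wild type, described as littermates) were compared with Hspa9+/- colonies (heterozygous), with 5 biological replicates of each and 1 array per replicate. The labels do not tie a replicate to a mouse, so p-values measure the spread between these samples. The sources used here give neither age nor sex, nor how the Hspa9 allele was made. Values are log2 expression and differences are heterozygous minus wild type, so that a difference of 1 is a 2-fold change, with n = 5 per genotype unless arrays are said to be left out.

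DNA is copied from origins that are licensed in G1, when the origin recognition complex together with CDC6 and CDT1 loads the ring-shaped MCM helicase onto DNA. In S phase CDC45 and the GINS complex join the ring and make it an active helicase, polymerase alpha with its primase starts each new strand, and the sliding clamp PCNA, placed by replication factor C, holds the polymerases on DNA. Most of these genes are transcribed in waves under E2F transcription factors, so their RNA is high in cycling cells and low in resting ones. In B cell development, large pre-B cells cycle in response to interleukin 7 and then leave the cycle as small pre-B cells that rearrange their light chain genes. Hspa9 encodes mortalin, a chaperone of the mitochondrial matrix.

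Letters of the E2F motif were searched in the DNA upstream of the members, and some of these stretches are shown to illustrate what a match looks like. RefSeq promoter entries (build GRCm38.p6) matched 30 of the 35 members. The 250 bases before each start were searched on both strands for the 8-letter E2F motifs TTTCCCGC or TTTGGCGC or TTTCGCGC or TTTGCCGC, counting overlapping matches. A match was present for 9 of the 30 members (30%), against 583 of 27025 genes (2.16%) with an entry. The 9 were Orc1, Cdc6, Mcm5, Mcm6, Mcm7, Gins3, Pola1, Rfc3 and Uhrf1. For 7 of them, as examples, the stretch around the match is printed 5′ to 3′ on the gene's own strand, with the matches in capitals.
Mcm6, chr1:128359735-128359825, minus strand: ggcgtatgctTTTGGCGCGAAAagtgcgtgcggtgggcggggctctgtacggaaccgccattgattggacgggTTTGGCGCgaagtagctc
Mcm5, chr8:75109332-75109391, plus strand: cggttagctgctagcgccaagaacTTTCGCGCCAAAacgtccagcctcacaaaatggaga
Orc1, chr4:108579394-108579453, plus strand: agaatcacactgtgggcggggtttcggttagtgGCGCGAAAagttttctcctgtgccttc
Cdc6, chr11:98907987-98908046, plus strand: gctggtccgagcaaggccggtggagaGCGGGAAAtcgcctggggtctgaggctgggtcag
Gins3, chr8:95633492-95633551, plus strand: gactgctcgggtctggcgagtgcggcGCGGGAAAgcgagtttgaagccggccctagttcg
Rfc3, chr5:151651209-151651268, minus strand: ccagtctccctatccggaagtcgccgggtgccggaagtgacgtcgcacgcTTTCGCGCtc
Pola1, chrX:93632260-93632319, minus strand: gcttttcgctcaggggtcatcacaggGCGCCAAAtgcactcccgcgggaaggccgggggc
In Mcm6 and Mcm5 a pair of matches on opposite strands overlaps, and Mcm6 holds a further match nearer its start. The pentamer CCAAT, searched in the same windows on both strands, was present for 18 of the 30 members (60%), against 37.5% of all genes and 16 of 19 G2/M and mitosis genes (84.2%). The letters TTTGAA were present for 4 members (13.3%), against 18.3% of all genes and 8 of 19 G2/M and mitosis genes (42.1%). An E2F match was present for 1 of those 19 (5.26%). A match describes letters and not a bound site. The median genotype difference was -0.04 for the 9 members with an E2F match and 0.02 for the 21 without.

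The labels were checked against marker genes before the comparison. Hspa9 had a wild type mean of 9.92 and a heterozygous mean of 9.18, with a difference of -0.73 (SE 0.185, exact permutation p = 0.0159, limma adjusted p = 0.345). Its genotypes overlapped, with heterozygous 1 at 9.52 and wild type 1 at 9.49. Of 14 B lineage markers 13 were tested, and the B cell receptor component Cd79a lay between 11.56 and 12.13 in every array. Other B lineage markers were less even. The transcription factor gene Pax5 ran from 9.21 to 11.06, and 5 of the 13 had an unadjusted p under 0.05, with none past adjustment. These were the recombinase genes Rag1 (-0.79) and Rag2 (-0.59), the surrogate light chain genes Vpreb2 (0.51) and Igll1 (0.28), and Cd24a (-0.19), whose genotypes did not overlap. Of the 13, 15.4% were higher and 23.1% lower at that threshold, against 6.79% and 4.25% of all genes. Among all genes 2.28% did not overlap between genotypes. Of 16 monocyte and macrophage markers 14 were tested, and their mean ran from 5.54 to 9.19 in wild type and from 6.97 to 9.67 in heterozygous arrays. Wild type 1 (9.19) and heterozygous 2 (9.67) stood apart from the others, whose highest value was 7.57. The same arrays were highest in the mean of the neutrophil genes, 14 tested of 15 listed (6.70 and 7.44, others up to 6.05). They were also highest in that of the megakaryocyte genes, 4 tested of 6 listed (7.54 and 7.79, others up to 6.24). Of 9 listed T cell and NK cell genes 5 were tested. Cd3d, Cd3g, Lck and Ncr1 lacked a probe set of 1 symbol or did not pass the filter on dim genes. The 5 tested were all higher at an unadjusted p under 0.05, against 6.79% of all genes. Their mean ran from 5.28 to 6.06 in wild type and from 6.26 to 6.51 in heterozygous arrays. In the plasmacytoid dendritic cell list 5 of 6 were higher at that threshold. The mean of this list ran from 6.67 to 7.60 in wild type and from 7.29 to 8.54 in heterozygous arrays. Of 8 listed erythroid genes 5 were tested, with 0 at that threshold. The part of these markers in the results on the members was not tested, apart from the fits on macrophage genes given further on. Differences without this pair of arrays are in the plot of differences for every member, and in the text for some of them. In bulk RNA, fewer cells of a type and less RNA per cell cannot be told apart.

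No member passed the test between the genotypes. The limma count was 0 of 35 at an adjusted p under 0.05, and the percent of all genes called was 0. At an unadjusted p under 0.05 the count was 1 of 35 higher (2.86%) and 0 lower, against 6.79% higher and 4.25% lower among all genes tested. The genotypes overlapped for all 35 members, while 2.28% of all genes did not overlap. Differences ran from -0.34 for Pola1 to 0.34 for Gins2, 19 above 0 (54.3%, against 61.3% of all genes) and 16 below. Their median was 0.01, beside 0.06 for all genes. The spread between replicates was wide for these genes, with a median SD within a genotype of 0.321 against 0.228 for all genes. Even so, the 95% interval of the difference stayed within a 2-fold change in either direction for 34 of 35 members, all but Pola1, and within a 1.5-fold change for 21. The plot of differences with their intervals shows the whole set.

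**Figure D1:**
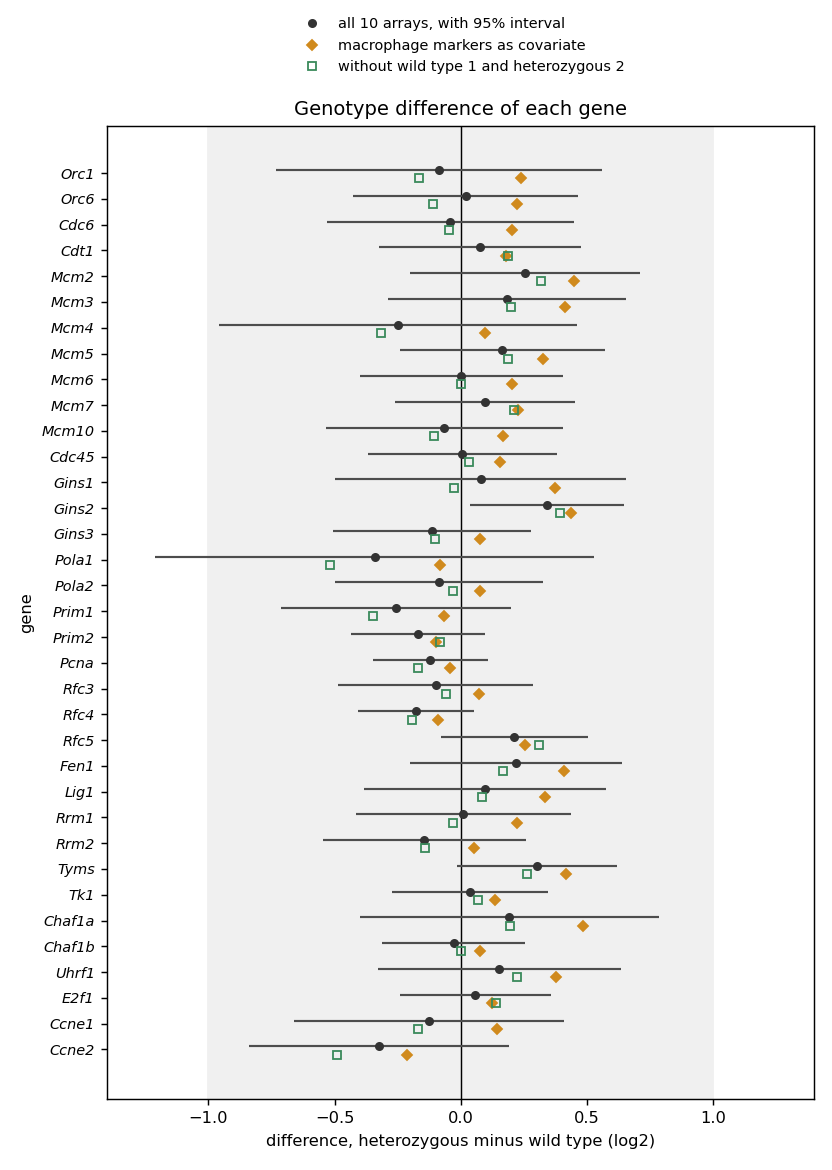
Difference between genotypes (heterozygous minus wild type, log2) for each of the 35 genes, with n = 5 per genotype. Black points and lines are the limma difference and its 95% interval over all 10 arrays, filled diamonds are the difference adjusted for the macrophage marker mean and open squares the difference without wild type 1 and heterozygous 2. The shaded band marks a 2-fold change in either direction, and the Pola1 interval alone reaches beyond it.

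Licensing begins with the origin recognition complex. Orc1, its largest ATPase subunit, was at 5.43, 6.43, 6.93, 6.90 and 6.56 in wild type arrays 1 to 5 and at 6.66, 5.65, 6.48, 6.72 and 6.31 in heterozygous arrays 1 to 5. Wild type 1 and heterozygous 2 lay below every other array, and the remaining 8 overlapped between genotypes. The difference was -0.09 (95% interval -0.73 to 0.56). Orc6, the smallest subunit, lay between 8.56 and 9.66 with a difference of 0.02. Its wild type 1 value of 8.56 was the lowest, and the next wild type array was at 9.46.

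The loading factors Cdc6 and Cdt1 did not differ beyond their spread. Cdc6, the ATPase that recruits the helicase to the origin complex, lay between 7.32 and 8.35 and had a difference of -0.04. Cdt1, which delivers the MCM ring and is destroyed once S phase starts, was at 8.44, 8.55, 8.56, 8.51 and 8.62 in wild type and at 8.50, 8.06, 8.39, 9.02 and 9.07 in heterozygous arrays. Its wild type arrays hardly varied (SD 0.0676), whereas the heterozygous ones spanned 1.02 units, with heterozygous 2 lowest and heterozygous 4 and 5 above every wild type array. The means nevertheless differed by 0.07 (95% interval -0.32 to 0.47), and by 0.19 without wild type 1 and heterozygous 2.

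The subunits Mcm2, Mcm3, Mcm4, Mcm5, Mcm6 and Mcm7 form the helicase ring, and their differences ran from -0.25 to 0.25. Mcm2 was at 8.94, 9.48, 9.61, 9.42 and 9.54 in wild type and at 9.61, 8.94, 9.67, 9.98 and 10.05 in heterozygous arrays. It had the most positive difference of the ring, 0.25 (SE 0.208, limma adjusted p = 0.609). Heterozygous 2 shared the bottom of its range with wild type 1. Without that pair every heterozygous array lay above every wild type array (difference 0.32, adjusted p = 0.281). In that fit the genotypes of 8.65% of all genes did not overlap. Heterozygous 2 was the only heterozygous array not above every wild type array, so the separation follows from leaving it out.

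Mcm6 was the member with the smallest difference. Its values were 9.63, 9.96, 10.39, 10.39 and 10.27 in wild type and 10.13, 9.63, 10.27, 10.30 and 10.31 in heterozygous arrays, and both means were 10.13. The difference was 0.0010 with a 95% interval of -0.40 to 0.40. Mcm4 varied most in the ring, at 8.11, 8.46, 9.60, 9.68 and 9.21 in wild type and 9.18, 8.12, 9.08, 8.91 and 8.51 in heterozygous arrays. Its difference of -0.25 (95% interval -0.96 to 0.46) was smaller than either genotype's SD of 0.698 and 0.440. The other subunits were at 0.18 for Mcm3, 0.16 for Mcm5 and 0.10 for Mcm7, with adjusted p from 0.703 to 0.805. Mcm7 was at 0.21 without wild type 1 and heterozygous 2. Mcm3 was at 0.03 without wild type 1 alone and at 0.35 without heterozygous 2 alone.

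**Figure D2:**
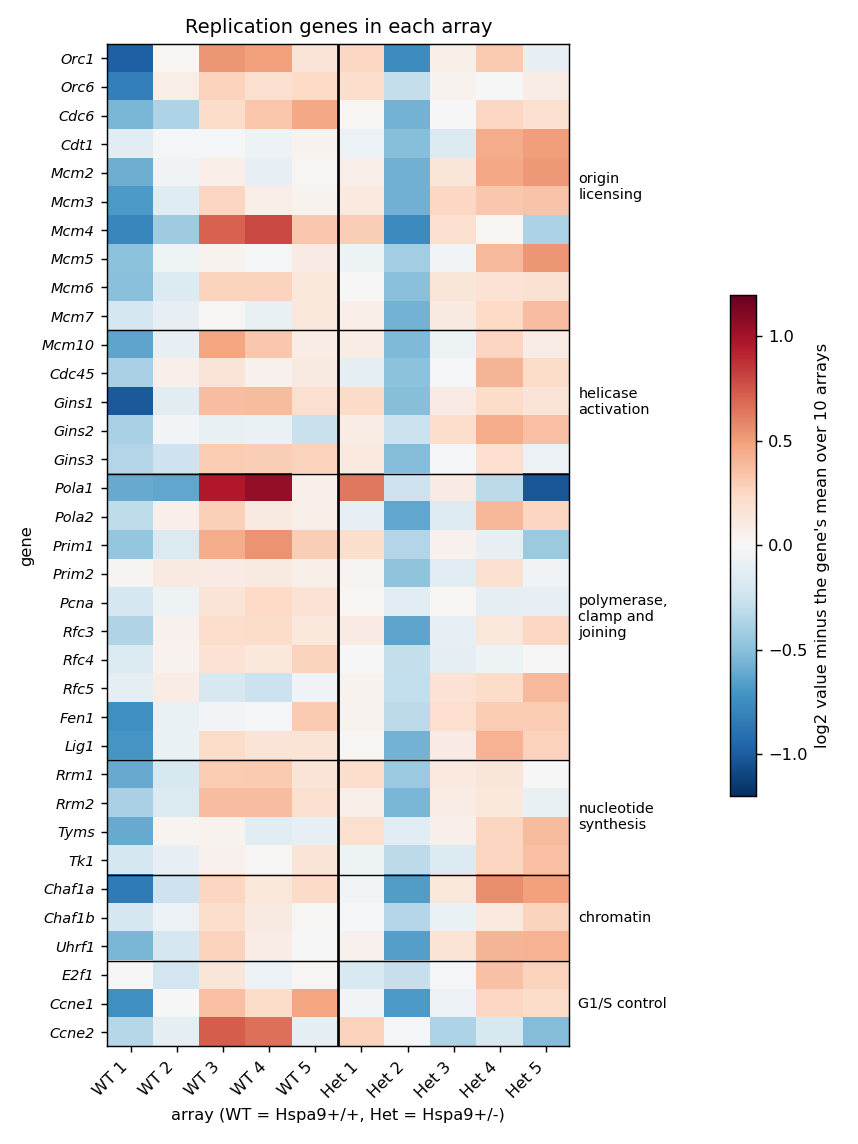
Log2 value of each of the 35 genes in each array after subtraction of that gene's mean over the 10 arrays, with genes grouped by role and wild type (WT) and heterozygous (Het) arrays parted by the vertical line. The columns WT 1 and Het 2 are low for nearly all genes, while Het 4 and Het 5 are high for Cdt1, Mcm2, Gins2 and Chaf1a and low for Pola1 and Ccne2.

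Among the factors that activate the helicase, Gins2 had the most positive difference of all members. This subunit of the GINS ring was at 9.09, 9.44, 9.38, 9.39 and 9.21 in wild type and at 9.56, 9.22, 9.68, 9.92 and 9.83 in heterozygous arrays. Of the heterozygous arrays 4 lay above every wild type array, and heterozygous 2 lay among them. The difference was 0.34 (SE 0.139, 95% interval 0.04 to 0.65), which is 127% of the wild type level. The unadjusted limma p was 0.0319 and the adjusted p 0.427, so the gene did not pass. It was 0.39 without wild type 1 and heterozygous 2 (adjusted p = 0.194). There the genotypes did not overlap, as held for 8.65% of all genes, and this follows from leaving heterozygous 2 out. Over the fits without 1 array the Gins2 difference ran from 0.27 to 0.45.

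The partners of Gins2 had differences of smaller size, and no test compared them with Gins2. Gins1 was at 0.08 and Gins3 at -0.12, and Cdc45, which bridges GINS and the MCM ring, at 0.01 (95% interval -0.37 to 0.38). Mcm10, needed for the loaded helicase to start, was at -0.07. Gins1 had a value of 7.05 in wild type 1, where the other wild type arrays lay between 7.94 and 8.45. The Gins2 difference of 0.34 lay inside the 95% intervals of Gins1 (-0.50 to 0.65) and Cdc45. Adjusted for the macrophage marker mean, Gins1 was at 0.37 and Gins2 at 0.44. In that fit Cdc45 and Mcm10 were at 0.16 and Gins3 at 0.07.

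**Figure D3:**
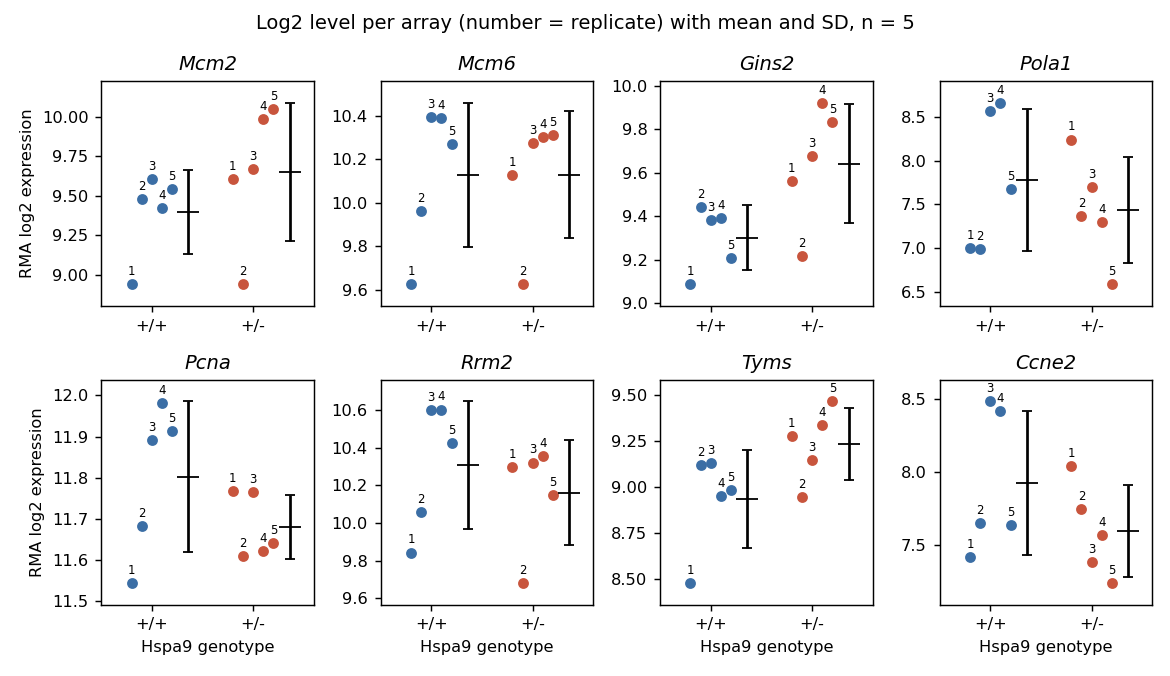
Log2 level of 8 genes in each array, by Hspa9 genotype, with the replicate number above each point and the mean and SD (n = 5) at the right of each group. Replicate 1 of wild type and replicate 2 of heterozygous lie low for Mcm2, Mcm6, Rrm2 and Gins2, and the genotypes overlap in all 8 panels.

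The polymerase and clamp genes had a median of -0.11, with 7 of 10 below 0 and none past the test. Pola1, the catalytic subunit of polymerase alpha, was at 7.00, 6.99, 8.58, 8.67 and 7.67 in wild type and at 8.25, 7.36, 7.71, 7.29 and 6.58 in heterozygous arrays. It spanned 2.08 units, the widest of the members, with heterozygous 5 lowest and wild type 3 and 4 highest. The difference was -0.34 (95% interval -1.21 to 0.53), so a 2-fold lower level lies inside its interval. It was -0.52 without wild type 1 and heterozygous 2.

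The other subunits of the same enzyme had narrower intervals. Pola2, its accessory subunit, was at -0.09 (95% interval -0.50 to 0.32). Prim1, the primase that lays the RNA primer, was at 8.45, 8.74, 9.36, 9.45 and 9.21 in wild type and 9.12, 8.56, 8.96, 8.81 and 8.47 in heterozygous arrays. The difference was -0.26 (SE 0.206, adjusted p = 0.601). Prim2, the large primase subunit, barely varied among wild type arrays (SD 0.0301) and was at -0.17 (95% interval -0.44 to 0.09), with heterozygous 2 lowest at 6.89.

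The clamp gene had the narrowest interval of the members. Pcna was at 11.54, 11.68, 11.89, 11.98 and 11.91 in wild type and at 11.77, 11.61, 11.76, 11.62 and 11.64 in heterozygous arrays. The heterozygous arrays lay inside the wild type range, and the difference was -0.12 (95% interval -0.35 to 0.11). A second Pcna probe set had a difference of -0.12 as well. Its mean over the arrays was 11.74, and the platform annotation lists the same transcripts for both, so they are not independent measurements. Which copy of the gene each Pcna probe set covers is not known here.

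Subunits of replication factor C, the loader that opens the clamp, lay on either side of 0. Rfc5 was at 0.21 (SE 0.132) and Rfc4 at -0.18 (SE 0.105), with adjusted p of 0.539 and 0.522, and Rfc3 was at -0.10. Rfc4 values were 8.73, 8.94, 9.08, 9.02 and 9.17 in wild type and 8.90, 8.62, 8.79, 8.84 and 8.91 in heterozygous arrays. Without wild type 1 and heterozygous 2 the Rfc4 genotypes did not overlap (-0.19, adjusted p = 0.341), as held for 8.65% of all genes in that fit. Fen1, the flap nuclease that trims Okazaki fragments, was at 0.22 (95% interval -0.20 to 0.64), and at 0.06 without wild type 1. Lig1, the ligase that seals them, was at 0.09 (95% interval -0.39 to 0.58).

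Of the nucleotide synthesis genes, the ribonucleotide reductase subunits differed little between genotypes and thymidylate synthase had the second largest positive difference of the members. Rrm1, the large reductase subunit, was at 0.01 (95% interval -0.42 to 0.43). Rrm2, the small subunit made in S phase, was at 9.84, 10.06, 10.60, 10.60 and 10.42 in wild type and 10.30, 9.68, 10.32, 10.36 and 10.15 in heterozygous arrays. The difference was -0.14 (SE 0.182). Tyms, which makes thymidylate from deoxyuridylate, was at 8.48, 9.12, 9.13, 8.95 and 8.98 in wild type and 9.27, 8.95, 9.15, 9.34 and 9.46 in heterozygous arrays. All but heterozygous 2 lay above every wild type array, with a difference of 0.30 (SE 0.144, 95% interval -0.02 to 0.62, adjusted p = 0.469). Wild type 1 was the lowest array, and without it the difference was 0.19.

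Tk1, the thymidine kinase of the salvage route, was at 0.03 (95% interval -0.27 to 0.34). A second Tk1 probe set was at 0.11 (SE 0.158). Which copy of a gene each of these probe sets covers is not known here.

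The S phase chromatin genes and the G1/S regulators completed the list. Chaf1a, the large subunit of the chromatin assembly factor that deposits histones on new DNA, was at 7.25, 7.86, 8.36, 8.24 and 8.33 in wild type and 8.07, 7.43, 8.24, 8.66 and 8.60 in heterozygous arrays. Its difference was 0.19 (95% interval -0.40 to 0.78), while its partner Chaf1b was at -0.03. The Chaf1a difference was 0.0024 without wild type 1 and 0.38 without heterozygous 2. Uhrf1, which brings the maintenance DNA methyltransferase to new strands, was at 0.15 (95% interval -0.33 to 0.63), at 0.04 without wild type 1 and at 0.34 without heterozygous 2.

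E2f1, the transcription factor that drives many of these genes, was at 0.06 (95% interval -0.24 to 0.36). The E-type cyclins, which activate CDK2 at the start of S phase, were at -0.13 for Ccne1 and -0.33 for Ccne2. Ccne2 was at 7.42, 7.65, 8.49, 8.42 and 7.64 in wild type and 8.04, 7.75, 7.39, 7.57 and 7.24 in heterozygous arrays. Its 2 highest values were in wild type 3 and 4 and its lowest in heterozygous 5, an order like that of Pola1, and the difference did not pass (SE 0.234, adjusted p = 0.570). It was -0.49 without wild type 1 and heterozygous 2.

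The clearest pattern in the replication genes lay between arrays and not between genotypes. In 32 of 35 members wild type 1 was the lowest wild type array, and in 32 of 35, all but Pola1, Prim1 and Ccne2, heterozygous 2 was the lowest heterozygous array. In 27 of 35 both lay below the other 8 arrays. Averaged over the members after removing each gene's own mean, wild type arrays 1 to 5 were at -0.48, -0.10, 0.25, 0.20 and 0.13 and heterozygous arrays 1 to 5 at 0.08, -0.45, 0.03, 0.21 and 0.13. Orc1 showed the largest deficit in the pair, -1.09 relative to the mean of the other 8 arrays, followed by Mcm4 at -0.96, and Gins1 and Chaf1a at -0.95. E2f1 showed the smallest, -0.17.

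Macrophage genes moved the other way across the arrays. Their mean was 9.19, 7.57, 5.75, 5.54 and 5.67 in wild type arrays 1 to 5 and 7.24, 9.67, 7.18, 6.97 and 7.19 in heterozygous arrays 1 to 5, as the plot by array shows. With that mean as a covariate in the limma fit, 12 members were higher at an unadjusted p under 0.05 (34.3%) and 0 were lower, against 9.25% higher among all genes in that fit. They were Mcm2, Mcm3, Mcm5, Mcm6, Gins1, Gins2, Fen1, Lig1, Rrm1, Tyms, Chaf1a and Uhrf1. Chaf1a had the largest of these differences at 0.48 (SE 0.129, adjusted p = 0.183) and Mcm3 the smallest adjusted p at 0.18 (difference 0.41, SE 0.107). None passed adjustment over all genes, and the median over the 35 members was 0.18, beside 0.05 for all genes.

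Leaving the pair of arrays out gave another picture. Over the other 8 arrays the median of the members was -0.03, beside 0.07 for all genes. An unadjusted p under 0.05 was reached by 4 members, Mcm2, Gins2, Rfc5 and Tyms, all higher (11.4%). Among all genes 1497 of 14953 (10%) were higher at that threshold. None of the members passed adjustment, while 26 genes of the 14953 did. The genotypes did not overlap for 4 members (11.4%, against 8.65% of all genes), with Mcm2, Gins2 and Tyms higher and Rfc4 lower. Of the 12 members named with the covariate, 3 were named without the pair. The macrophage mean was lowest in wild type 3, 4 and 5 and so varied with genotype as well. Its part in the differences of the members was not tested beyond these fits.

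**Figure D4:**
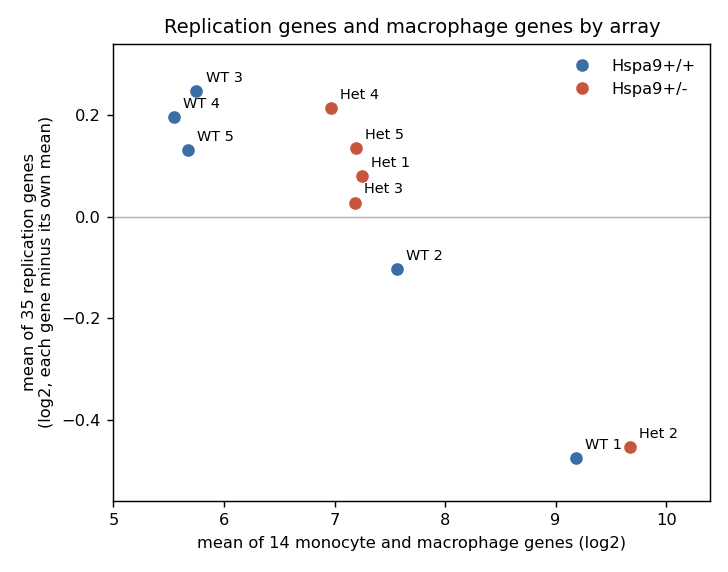
Mean of the 35 replication genes in each array (log2, each gene minus its own mean over the arrays) against the mean of 14 monocyte and macrophage genes (log2), with wild type (WT) and heterozygous (Het) arrays labelled by replicate. WT 1 and Het 2 lie at the lower right, at -0.48 and -0.45, and the other 8 arrays between -0.10 and 0.25.

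A second division of the members ran through the remaining arrays. In 18 of 35 members, among them Cdt1, Mcm2, Mcm5, Mcm7, Gins2, Tyms, Tk1, Uhrf1 and E2f1, the highest of the 10 values was in heterozygous 4 or 5. In 13, among them Orc1, Mcm4, Mcm6, Gins1, Pola1, Prim1, Pcna, Rrm1, Rrm2 and Ccne2, it was in wild type 3 or 4. The mean of heterozygous 4 and 5 minus that of wild type 3 and 4 ran from -1.68 for Pola1, -1.05 for Ccne2 and -0.93 for Mcm4 to 0.54 for Rfc5, 0.51 for Cdt1 and 0.50 for Mcm2. These arrays were picked after their values were seen, and the values carry no test.

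The arrays also differed in how values went with gene length. Over the 5964 genes with a mean above 7, an array's deviation was set against the length of the gene's span by Spearman correlation. The correlation was 0.446 in wild type 3, 0.425 in wild type 4, -0.455 in wild type 2, -0.272 in heterozygous 4 and -0.452 in heterozygous 5. It was 0.323 in heterozygous 3, 0.273 in heterozygous 1, 0.205 in wild type 5, -0.13 in wild type 1 and -0.185 in heterozygous 2. Genes of one array share its RNA and are not independent, so the correlation is a description. Over the 35 members it ran from -0.300 to 0.338. Pola1, whose span of 328 kb is the longest of the members, was highest in the arrays with the highest correlations and lowest in heterozygous 5. Prim2, the next longest at 216 kb, was instead highest in heterozygous 4 (7.57), and Ccne2, with an order of arrays like that of Pola1, spans 14.3 kb. The part of gene length in these values was not tested.

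**Figure D5:**
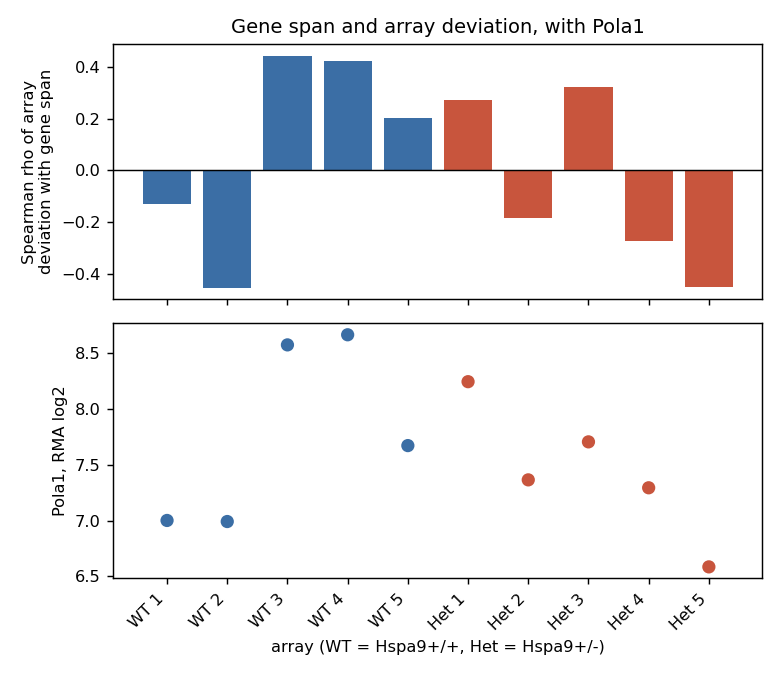
Upper panel, Spearman correlation across 5964 genes between each array's deviation from the gene's mean and the gene's span in bases. Lower panel, log2 level of Pola1 in the same arrays, with wild type (WT) in blue and heterozygous (Het) in red. Both are highest in WT 3 and WT 4, and Het 5 has the lowest Pola1 value, 6.58, and a correlation of -0.452.

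Further genes of the pathway were taken from 6 lists of genes with the same roles, 87 of them tested. Over all 87, 0 passed and the median was -0.04. At an unadjusted p under 0.05, 3 were higher (3.45%) and 4 lower (4.6%), against 6.79% and 4.25% of all genes. By sign 38 were above 0 and 49 below, while 61.3% of all genes were above 0. The further licensing genes had 0 of 8 past any of these thresholds and a median of -0.20, with all 8 below 0. The 12 further firing and fork genes had a median of -0.23, with 9 below 0. Among them Donson, which helps to assemble the helicase, was lower at an unadjusted p under 0.05 (-0.48, SE 0.170, adjusted p = 0.381). The 17 further polymerase and clamp genes had 0 past these thresholds and a median of 0.01, with 8 below 0.

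Among the 6 further lists, that of nucleotide synthesis genes held the smallest p values. Of 26 tested, 3 were higher (11.5%) and 1 lower (3.85%) at an unadjusted p under 0.05, against 6.79% and 4.25% of all genes. The median was 0.15, with 6 below 0 and 76.9% above 0, against 61.3% of all genes above 0. Impdh1, which commits inosine monophosphate to guanine nucleotides, was at 7.59, 7.35, 7.15, 6.86 and 6.69 in wild type and 7.70, 7.37, 7.74, 8.05 and 8.13 in heterozygous arrays. The difference was 0.67 (SE 0.193, adjusted p = 0.349). Nme2, a nucleoside diphosphate kinase, was at 0.37 (SE 0.118, adjusted p = 0.349). Samhd1, which breaks down deoxynucleotide triphosphates, was at 9.58, 9.83, 9.34, 9.44 and 9.69 in wild type and 8.65, 9.54, 9.17, 8.77 and 8.25 in heterozygous arrays. Its difference was -0.70 (SE 0.215, adjusted p = 0.349), and all but heterozygous 2 lay below every wild type array.

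Of the remaining lists, 1 of 8 S phase chromatin genes was lower at an unadjusted p under 0.05, the histone chaperone Asf1a at -0.35 (SE 0.124, adjusted p = 0.382). Among all genes 4.25% were lower at that threshold. By sign 5 of the 8 were below 0, with a median of -0.11. Of 16 G1/S control genes 1 was lower at that threshold, the retinoblastoma gene Rb1 at -0.90 (SE 0.324, adjusted p = 0.384). By sign 13 of the 16 were below 0, with a median of -0.21. Rb1 was at 8.48, 8.25, 9.07, 9.39 and 8.83 in wild type arrays. It was at 8.36, 8.23, 8.47, 7.67 and 6.79 in heterozygous arrays, lowest in heterozygous 4 and 5. Genes of G2/M and mitosis, the next phase of the cycle, had a median of -0.08 over 24 tested, with 0 at an unadjusted p under 0.05. By array their mean was lowest in heterozygous 2 (-0.31), heterozygous 5 (-0.29) and wild type 1 (-0.23). Heterozygous 5 was thus low for mitotic genes and at 0.13 for the replication members, and this contrast was not tested.

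Genes that share a start region with a member were compared with it. In the RefSeq promoter entries 6 members had a neighbour on the opposite strand whose start lay within 1000 bases, and 5 of these neighbours were tested. Prpf38a, a splicing factor gene beside Orc1, was at -0.04, Ap4m1 beside Mcm7 at -0.13, Zswim9 beside Lig1 at 0.13, Tmem258 beside Fen1 at 0.07 and Ufd1 beside Cdc45 at -0.11, with adjusted p from 0.570 to 0.922. Prpf38a was lowest in wild type 1 (7.92) and heterozygous 2 (8.08), as Orc1 was, whereas Ap4m1 was highest in wild type 1 (7.20), where Mcm7 was lowest among wild type arrays. The Mcm7 gene also holds 3 microRNA genes within its span. Their probe sets were at 0.01 for Mir106b, -0.07 for Mir93 and 0.02 for Mir25. Mean levels over the 10 arrays were 5.06, 5.34 and 6.84. Those of Mir106b and Mir93 lay below the median gene mean of 5.69, so their small differences say little.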

How the data were processed

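RNA of B220+ cells from 10 samples was hybridised, after cDNA amplification with a NuGEN kit, to Mouse Gene 1.0 ST arrays, per the labels' protocols. The authors deposited log2 values per probe set, which Affymetrix Expression Console produced by RMA, per the submitters' processing notes. The sources used here name neither its version nor a genome build. RMA brings arrays to a shared distribution, so a shift of most genes would be largely removed. Array medians ran from 5.38 to 5.49, and the number of arrays limits the precision. The platform annotation gave 21789 of 35556 probe sets 1 symbol, 1621 several and 12146 none. Rows at or below the 25th percentile of gene means (4.52) were left out, which kept 14953 genes. Genotypes were compared with limma 3.58.1 (lmFit, eBayes) in R 4.3.3 over all genes tested, with Benjamini-Hochberg adjustment and a threshold of 0.05, and Hspa9 alone also by an exact permutation test, two-sided, over 252 divisions of the arrays (smallest possible p 0.0079). The fit was tested on simulated data with the genes' own means and SDs. At the adjusted threshold it recovered 27% of 100 genes changed by 0.5 log2 units and 77% of 100 changed by 1. In the measured data no gene passed, and Hspa9, with a difference of -0.73, had a limma adjusted p of 0.345. The median SD within a genotype was 0.321 for the members and 0.228 for all genes. Recovery at the spread of the members was not tested, so these percentages are not rates for them. The differences of all members were smaller than 0.5 in size, so changes of their size would mostly be missed.

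Members, lists and alternatives were chosen with earlier results of these data known. All members are named, as are up to 2 further genes per list and direction at an unadjusted p under 0.05. Starts of neighbours were taken from the RefSeq promoter entries. The alternatives were other filters, probe set rules, normalizations, variance models, weights per array, a block for the replicate number, macrophage markers as a covariate and arrays left out.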

Additional observations from a re-analysis of the deposited data

Results flagged for a closer look

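Within a genotype, 9 of 78 sets of 5 values had an extreme value whose gap to the nearest other exceeded 0.71 of the range. A single set passes this limit by chance in about 1 in 20 cases. The sets share the same 10 arrays and 1 of the 9 is the mean of the members. They are not independent, so the count of 9 is not to be set against that rate. All 9 were low values in wild type 1 or heterozygous 2. In wild type 1 these were Orc6 at 8.56 (next 9.46), Mcm2 at 8.94 (next 9.42), Mcm5 at 8.79 (next 9.23), Cdc45 at 8.58 (next 9.02) and Tyms at 8.48 (next 8.95). In heterozygous 2 they were Mcm3 at 9.02 (next 9.71), Mcm6 at 9.63 (next 10.13) and Gins1 at 7.55 (next 8.16). The mean of the 35 members, each gene taken relative to its own mean, was -0.45 in heterozygous 2, where the next heterozygous array was at 0.03. These arrays had the highest macrophage marker means, 9.19 and 9.67, and the part of that in the low values was not tested.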

How the results depend on the processing

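The count of 0 members past the threshold held in all alternatives run, at an adjusted p under 0.10 too. The count at an unadjusted p under 0.05, 1 in the report, was 2 with quantile normalization, 2 with cyclic loess, 0 with arrays centred on their median, 4 with array weights, 12 with macrophage markers as a covariate, 4 without wild type 1 and heterozygous 2, and 0 to 5 without 1 array, the highest without heterozygous 2. With array weights 2 were higher and 2 lower, and without wild type 1 alone 0 were higher and 2 lower. In the other fits all those counted were higher. All genes stood at 4.27% higher and 4.71% lower with quantile normalization, 4.82% and 4.92% with cyclic loess, 4.59% and 4.51% with centred arrays, 13.1% and 7.45% with array weights (137 genes past adjustment), 9.25% and 5.81% with the covariate, and 7.92% and 4.91% without heterozygous 2. They stood at 10% and 6.09% without wild type 1 and heterozygous 2. Without 1 array they ran from 4.11% to 9.01% higher and from 2.74% to 6.01% lower, both highest without wild type 1. The replicate number as a block gave 0 of the members, and 11 of the further pathway genes, beside 5.13% higher and 3.83% lower among all genes. The numbers were not taken as pairs, since correlations of deviations between same-numbered arrays ran from -0.528 to 0.534 and 0 of 10 arrays correlated best with their own number. The members without overlap between genotypes, 0 in the report, were 4 without wild type 1 and heterozygous 2 and 0 to 3 without 1 array. The share of all genes rose from 2.28% with 10 arrays to 8.65% without the pair, and is not given here for the fits without 1 array. The further pathway genes at an unadjusted p under 0.05, 7 in the report, were 17 with array weights, 32 with macrophage markers as a covariate, 15 without wild type 1 and heterozygous 2 and 6 to 15 without 1 array. Hspa9 passed with array weights (-0.79, adjusted p = 0.0381) and in no other alternative. Of the 35 member differences, 16 kept their sign in all alternatives, Gins2, Tyms, Mcm2 and Pola1 among them, and none passed the threshold in any. With macrophage markers as a covariate the sign turned for Ccne1 at 0.14, Cdc6 at 0.20, Chaf1b at 0.076, Gins3 at 0.074, Mcm10 at 0.16, Mcm4 at 0.10, Orc1 at 0.24, Pola2 at 0.074, Rfc3 at 0.072 and Rrm2 at 0.052. With array weights the sign turned for Cdc45 at -0.048, Gins1 at -0.078, Lig1 at -0.0030, Mcm6 at -0.071, Orc6 at -0.10, Rrm1 at -0.069 and Tk1 at -0.064. Without wild type 1 and heterozygous 2 the sign turned for Chaf1b at 0.0015, Gins1 at -0.027, Orc6 at -0.11 and Rrm1 at -0.031. With quantile normalization the sign turned for Chaf1b at 0.0054, Mcm6 at -0.031 and Rrm1 at -0.021. With cyclic loess the sign turned for Chaf1b at 0.00052, Mcm6 at -0.024 and Rrm1 at -0.018. With arrays centred on their median the sign turned for Cdc45 at -0.0056, Mcm6 at -0.0096 and Rrm1 at -0.0021. With 1 array left out at a time the sign turned for Ccne1 (-0.33 to 0.029), Cdc45 (-0.10 to 0.13), Cdc6 (-0.18 to 0.094), Cdt1 (-0.042 to 0.21), Chaf1b (-0.10 to 0.055), E2f1 (-0.023 to 0.13), Gins1 (-0.17 to 0.22), Lig1 (-0.070 to 0.25), Mcm10 (-0.23 to 0.060), Mcm6 (-0.12 to 0.13), Orc1 (-0.34 to 0.091), Orc6 (-0.18 to 0.092), Pola2 (-0.20 to 0.058), Rfc3 (-0.20 to 0.045), Rrm1 (-0.14 to 0.12) and Tk1 (-0.051 to 0.12). The cause of these changes was not tested. With 5 arrays per genotype, the 95% interval reached from 0.228 (Pcna) to 0.868 (Pola1) on either side of a member's difference.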
